A study of Mus musculus with 2 samples.

Results

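The small proline-rich genes (Sprr) were described across the cell classes of corneal epithelium from control and dry eyes of mice. All 12 rows of the count table whose name starts with Sprr were read, and the 9 with 50 or more UMIs over all cells were taken, of 17891 genes in the table. A UMI, or unique molecular identifier, marks 1 captured RNA molecule. The 9 genes were Sprr1a, Sprr1b, Sprr2a3, Sprr2d, Sprr2e, Sprr2f, Sprr2h, Sprr2k and Sprr3. The lowest taken were Sprr3 with 93 UMIs and Sprr2e with 99, and the highest left out were Sprr2j-ps with 36, Sprr2i with 9 and Sprr2a1 with 8.

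Sprr proteins are small, proline-rich precursors of the cornified envelope, the protein shell that keratinocytes build under the plasma membrane as they differentiate. Transglutaminases cross-link them to each other and to involucrin, loricrin and other envelope proteins, so they act as bridges whose amount sets the texture of the shell. They are abundant in skin, the oral cavity and other lining epithelia under mechanical stress. The healthy cornea has a moist, non-cornified epithelium, and SPRR1B is used as a marker of squamous metaplasia of the ocular surface. The genes lie together in the epidermal differentiation complex, and the 9 described here spanned 200 kb, chr3:92285417-92485895 in mm10.

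The 7 animals were male mice of the C57BL/6J strain aged 10 weeks, each with the extra- and intraorbital lacrimal glands of the right side excised. Corneal epithelium was collected on day 9, as a control pool of the 7 left eyes and a dry eye pool of 6 right eyes, with 1 injured eye left out. Each pool gave 1 library of the 10x Genomics 3′ type, so no difference has a replicate check, no test was made, and every interval is an exact 95% interval for counting error only. Both pools came from the same mice, and the side of the eye and the treatment cannot be told apart. The control library held 17465 cells and 191493194 UMIs and the dry eye library 16420 cells and 207030777 UMIs, with medians of 8248 and 9086.5 UMIs per cell. Krt12, the keratin that defines corneal epithelium, stood at 21648 counts per 1000000 UMIs (CPM) in control and 19318 CPM in dry eye. The libraries shared 74 cell barcodes, which held 9 of the Sprr1a UMIs in control and 329 in dry eye. The deposited annotation named 13 cell classes, among them limbal stem (LSC), transit amplifying (TAC1, TAC2), Basal, Wing, squamous (Squam) and conjunctival (Conj) cells as far as the names can be read, and 5 names carry an asterisk whose meaning the sources used here do not give. Starred cells were fewer in control: 133 TAC1* cells against 473 in dry eye, 21 against 572 TAC2*, 12 against 446 Wing*, 6 against 85 LSC* and 0 against 217 Squam* cells.

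Of the 9 genes, 6 were at 0 in the whole control library: Sprr1b, Sprr2a3, Sprr2d, Sprr2e, Sprr2h and Sprr2k. These zeros are not plain counts. All 764 genes at 0 in control formed 1 unbroken block at the end of the table, in which 0 genes had a control UMI, while genes seen in 3 control cells numbered 484 and those seen in 1 or 2 cells only 8 and 98. If genes seen in fewer than 3 cells were removed from each library before the tables were joined, a control 0 could stand for up to 2 cells. The highest dry eye counts of that block belonged to Sprr1b with 21329 UMIs, Sprr2d with 990 and Sprr2h with 498. Ratios against these zeros are therefore given in 2 ways, as multiples of a floor of 3 counts, which takes the 0 as plain, and against 2 control cells that each held the mean of the dry eye cells with a UMI. Neither is a lower bound.

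The promoters of the most counted members are shown because the members were high in the same cells, and that of Sprr2e because it is nearly the same as that of Sprr2d. Each is the RefSeq window of 300 bases on GRCm38.p6, from 250 before the start of transcription to 50 after it, and capitals mark matches to TGANTCA (the AP-1 site), TATAAA (the TATA box) and ATTTGCAT (the octamer, searched for after the sequences had been read).
Sprr1a (chr3:92485832-92486131, minus strand): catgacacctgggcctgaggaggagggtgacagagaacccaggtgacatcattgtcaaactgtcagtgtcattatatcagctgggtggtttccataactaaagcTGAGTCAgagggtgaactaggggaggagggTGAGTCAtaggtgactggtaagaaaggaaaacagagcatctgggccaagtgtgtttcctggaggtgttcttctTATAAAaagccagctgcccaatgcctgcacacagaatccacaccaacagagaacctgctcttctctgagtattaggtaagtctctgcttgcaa
Sprr1b (chr3:92438730-92439029, minus strand): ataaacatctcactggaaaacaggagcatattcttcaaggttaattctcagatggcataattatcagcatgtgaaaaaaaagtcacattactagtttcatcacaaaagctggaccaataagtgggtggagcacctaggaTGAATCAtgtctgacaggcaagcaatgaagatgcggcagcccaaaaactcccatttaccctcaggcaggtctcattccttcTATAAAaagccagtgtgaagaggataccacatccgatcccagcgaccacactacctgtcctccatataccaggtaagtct
Sprr2d (chr3:92338890-92339189, plus strand): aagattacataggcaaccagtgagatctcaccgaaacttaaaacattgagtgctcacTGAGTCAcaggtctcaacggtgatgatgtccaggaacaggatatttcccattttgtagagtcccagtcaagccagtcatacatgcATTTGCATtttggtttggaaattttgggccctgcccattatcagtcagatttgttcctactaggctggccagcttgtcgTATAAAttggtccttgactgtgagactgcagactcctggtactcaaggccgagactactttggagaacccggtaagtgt
Sprr2e (chr3:92351893-92352192, plus strand): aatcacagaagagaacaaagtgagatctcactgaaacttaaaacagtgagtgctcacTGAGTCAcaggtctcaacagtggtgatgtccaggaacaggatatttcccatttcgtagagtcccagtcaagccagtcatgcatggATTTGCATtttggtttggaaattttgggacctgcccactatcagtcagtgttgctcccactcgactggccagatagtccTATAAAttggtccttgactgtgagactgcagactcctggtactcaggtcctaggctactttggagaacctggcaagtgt
Sprr2h (chr3:92385435-92385734, plus strand): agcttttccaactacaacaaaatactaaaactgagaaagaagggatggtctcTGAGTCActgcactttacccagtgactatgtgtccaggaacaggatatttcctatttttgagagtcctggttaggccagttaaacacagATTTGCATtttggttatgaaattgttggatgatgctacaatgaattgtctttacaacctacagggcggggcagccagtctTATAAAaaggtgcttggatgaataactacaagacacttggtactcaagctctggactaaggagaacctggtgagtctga

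Both strands were searched, and positions count from the start, with -1 the base before it. The AP-1 letters were in the windows of 7 of the 9 members, against 7.81% of all 32851 windows, and the TATA box letters were in 8 of 9, against 13.6%. Sprr1a had AP-1 matches at -146 and -116, Sprr1b had 1 at -111, and Sprr2d and Sprr2e each had 1 at -193. The octamer was in 5 windows, all of Sprr2 genes, against 1.74% of all windows, at -108 in Sprr2d and Sprr2e and at -109 in Sprr2h. The Ets letters CAGGAA were in 6 of 9 windows (30.6% of all), TGACNNNGC, the core of the antioxidant response element, in 2 (12.4%), where the match in Sprr1a overlaps its AP-1 match at -146, and the Klf letters GGGNGTG in 0 (29.2%). The windows of Sprr2d and Sprr2e were 88.0% identical without gaps and those of Sprr2h and Sprr2k 67.3%. The window of Sprr2a3 held none of the AP-1, TATA and octamer letters, and its RefSeq start lay 113 bases from the GENCODE start, against at most 14 for Sprr1a, Sprr1b, Sprr2d and Sprr3. A match describes letters and shows no binding.

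All 9 genes were higher in the dry eye library, each at more than 10 times its control level or floor. Over both libraries 3.76% of the 13997 genes with 50 or more UMIs were at least 2-fold higher in dry eye and 0.636% at least 10-fold higher, and the median gene was at -0.07 on the log2 scale. Summed, the 9 genes went from 17.2 CPM in control to 671 CPM in dry eye. Since a 3′ library counts 1 end of each RNA, these values do not scale with transcript length.

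Sprr1a, a cornifin and the only member with an appreciable control level, had 3287 UMIs in 1506 control cells and 115266 UMIs in 4534 dry eye cells. That is 17.2 and 557 CPM, a ratio of 32.4 (31.3 to 33.6). Sprr1b, the other cornifin, had 0 UMIs in control and 21329 UMIs in 1067 dry eye cells, 6.50% of that library's cells. Its level in dry eye was 103 CPM, which is 6576 times the floor and 493 times the level with 2 control cells behind the 0. The exact lower limit for a plain 0 was 5348. At the dry eye proportion of 0.185 Sprr1b UMIs per Sprr1a UMI, the control library would have held 608. Starred cells, which were few in control, raise that proportion and so the 608. In dry eye Wing, Squam and Conj, 4064, 739 and 167 Sprr1b UMIs came with 42644, 16837 and 1587 of Sprr1a. In control these classes had 0 Sprr1b UMIs with 1870, 658 and 708 of Sprr1a. The pair was thus not scaled alike: Sprr1a was present in control and Sprr1b was not detected there beyond what the 0 allows.

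The Sprr2 genes were counted far less and were carried by few cells. Sprr2d had 990 UMIs in 99 dry eye cells, 305 times the floor, 45.8 times the level with 2 control cells behind its 0, and 127 times the floor without the 10 highest cells of each library. Sprr2h had 498 UMIs in 196 cells, 154 and 90.6 times by the first 2 measures. Sprr2a3 had 222 UMIs in 112 cells, 68.4 and 51.8 times. Its counts are uncertain, because 74.8% of the 60-base stretches in the last 400 bases of its transcript occur letter for letter in transcripts of Sprr2a1, Sprr2a2 or Gm37428, whereas the other 8 members shared none. Sprr2k, with 114 UMIs in 47 cells, was at 35.1 times the floor, or 15.7 without the 10 highest cells of each library. Sprr2e, with 99 UMIs in 22 cells, was at 30.5 times the floor. With 2 control cells behind the 0, Sprr2k and Sprr2e were at 21.7 and 10.2. Of the Sprr2e UMIs, 63 lay in 1 cell, and without the 10 highest cells of each library it was at 3.70 times the floor.

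Sprr2f and Sprr3 were the other members with control counts. Sprr2f had 11 UMIs in 4 control cells and 295 UMIs in 50 dry eye cells, a ratio of 24.8 (13.7 to 50.2). Sprr3, best known from the oesophagus and mouth, had 3 UMIs in 3 control cells and 90 UMIs in 40 dry eye cells, a ratio of 27.7 (9.20 to 137). For both, the control value rests on a handful of cells, and Sprr3 was at 9.89 without the 10 highest cells of each library and at 11.4 without the 5% deepest.

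Much of these counts came from the starred classes, which hold 46.2% of the dry eye UMIs of Sprr1a, 75.5% of Sprr1b, 97.6% of Sprr2d, 98.0% of Sprr2e, 86.8% of Sprr2f, 91.8% of Sprr2h, 89.5% of Sprr2k, 75.6% of Sprr3 and 65.3% of Sprr2a3. Without those classes the ratio of Sprr1a was 20.3 and Sprr1b and Sprr2a3 were at 1860 and 27.4 times the floor. Sprr2d, Sprr2h and Sprr2k were then at 8.55, 14.6 and 4.28 times the floor, and the ratios of Sprr2f and Sprr3 were 3.79 and 7.84. Sprr2e had only 2 UMIs left, which gives no ratio. As a separate step, each class of the dry eye library was given the weight it has in control. Sprr2e was then at 1.61 times the floor, the one member under 2-fold. Sprr2a3, Sprr2d, Sprr2h and Sprr2k were at 20.4, 19.5, 19.7 and 5.79 times the floor. The ratios of Sprr2f and Sprr3 were 3.33 and 9.31. Sprr1b was then at 2410 times the floor.

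**Figure D1:**
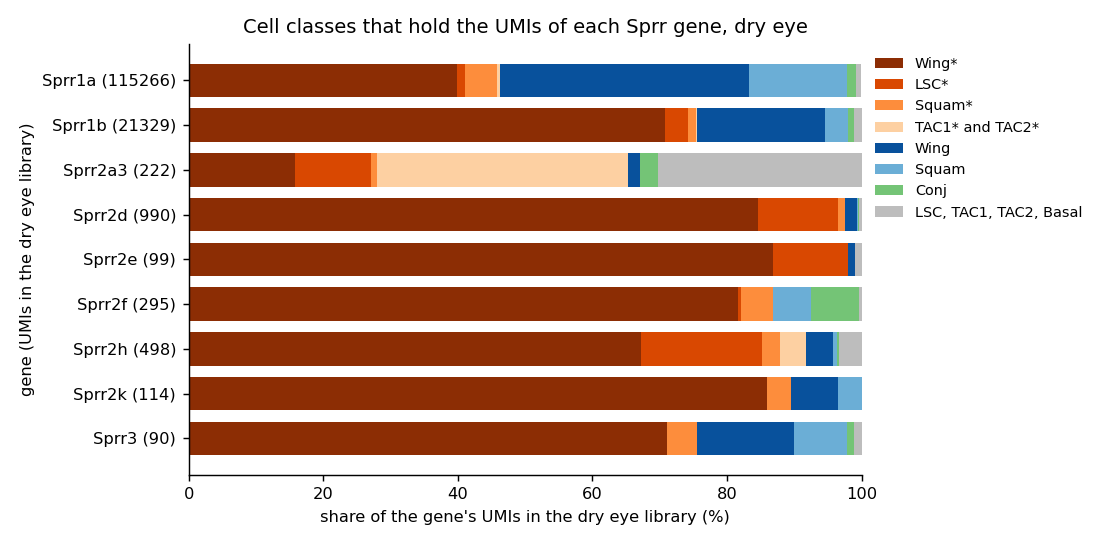
Share of each gene's dry eye UMIs (horizontal axis, percent) by cell class, with the gene's UMIs in brackets. Wing* (dark brown) takes most of every bar except those of Sprr1a and Sprr2a3, and only Sprr2a3 has a large share in TAC1*, TAC2* and the plain LSC, TAC and Basal classes.

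By class, among control classes of 100 or more cells Sprr1a was highest in Conj, Wing and Squam, at 34.7, 22.2 and 19.0 CPM, 3 levels whose intervals did not overlap. The others were at 1.36 CPM or lower: TAC2 had 18 UMIs, Basal 11, LSC and TAC1* 1 each, and TAC1 0. The 12 control Wing* cells had 19 UMIs, at 98.1 CPM (59.1 to 153), above Conj. In dry eye the order was different, with Wing* at 3900 CPM, Squam* at 1496, LSC* at 858, Wing at 680 and Squam at 484, then Conj at 61.3, TAC2* at 48.5 and TAC2 at 36.9 CPM. Conj thus lay above Wing and Squam in control and below both in dry eye.

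Within classes of 100 or more cells in each library, Sprr1a was 30.6-fold higher in dry eye in Wing (29.3 to 32.1), 25.5-fold in Squam (23.6 to 27.6) and 27.1-fold in TAC2 (17.0 to 45.9). At least 2-fold higher were 2.37% of genes in Wing, 1.71% in Squam, 1.28% in TAC2 and 0.837% in Conj. In Conj it was 1.77-fold higher (1.61 to 1.93), outside the other intervals. Krt16, a keratin of stressed epithelium, was 25.2-fold higher in Wing, 5.27-fold in Squam, 344-fold in TAC2 from 9 control UMIs, and 1.36-fold in Conj. Krt16 was thus near Sprr1a in Wing and Conj but not in Squam or TAC2, and its part in the result was not tested. In Basal and TAC1 the dry eye levels of Sprr1a, 5.67 and 5.65 CPM, were the lowest of all classes. In Basal it was 13.9-fold higher than in control (7.47 to 28.6). Droplets also hold free RNA. Subtracting the mean UMIs per cell of the lowest class reversed the ratio in Basal, itself that class in dry eye. It also lowered the ratio in TAC1 beyond its interval, as given at the end. How much of these levels was free RNA was not tested.

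**Figure D2:**
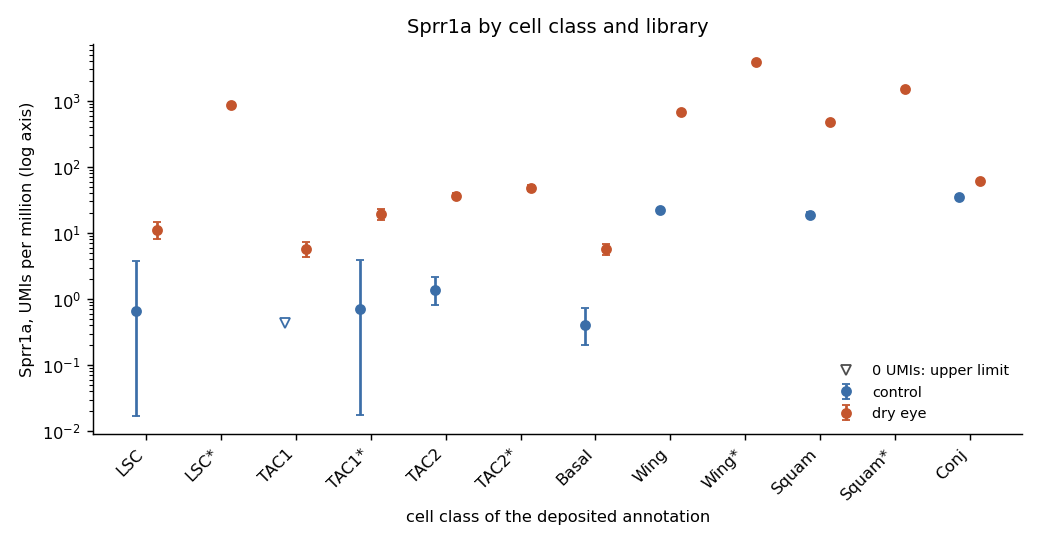
Sprr1a in CPM (log axis) by cell class in the control (blue) and dry eye (orange) libraries, with exact 95% counting intervals, for groups of 50 or more cells. The gap between libraries is wide in Wing and Squam and small in Conj, and the open triangle is the upper limit of a class with 0 UMIs.

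The share of cells with a Sprr1a UMI showed the same order once each cell was thinned to 3000 UMIs, which removes differences in depth and left out 1094 control and 784 dry eye cells. It was 76.5% of dry eye Wing* cells (72.3 to 80.4), 67.9% of Squam*, 58.8% of LSC*, 35.1% of Wing and 26.3% of Squam. In control it was 4.88% of Wing, 3.62% of Squam and 6.39% of Conj cells. The lowest dry eye class was TAC1 with 1.53% (0.891 to 2.43), which is read as background. In control 0 of 950 TAC1 cells had a UMI. The floor of 3 counts is 0.316% of those cells, and the exact upper limit was 0.388%. Both concern cells with a UMI and set no limit on cells that express the gene. Unthinned, the shares were 91.3% in dry eye Wing*, 51.4% in dry eye Wing and 16.7% in control Wing, with median depths of 17483.5, 11815 and 10706 UMIs per cell.

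Per cell, Sprr1a was very uneven. In dry eye Wing* the lowest cell had 0 UMIs, the median cell 44.5 and the highest 1947, and in dry eye Wing the median was 1 and the highest 980. Among dry eye Wing cells 10% had more than 34 UMIs, so the class mixed many cells near 0 with a few very high ones. No 10 cells decided the total, since the 10 highest held 9.91% of the dry eye UMIs.

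Sprr1b was more narrowly placed than Sprr1a. It stood at 1280 CPM in Wing*, 449 in LSC*, 70.9 in Squam*, 64.8 in Wing, 21.3 in Squam, 10.1 in TAC2 and 6.45 in Conj, and at 3.05 CPM or lower in the other classes. The levels of Squam* and Wing did not differ beyond their intervals. Wing* was 19.8 times the level of Wing for Sprr1b and 5.74 times for Sprr1a. In control Conj, 708 Sprr1a UMIs came with 0 Sprr1b UMIs, and in dry eye Conj 1587 came with 167. After thinning, 52.8% of Wing* cells (48.1 to 57.6), 43.8% of LSC*, 8.96% of Squam* and 6.50% of Wing cells had a Sprr1b UMI, against 0 of 464 TAC1* cells.

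Sprr2d, Sprr2e and Sprr2h shared 2 classes, Wing* and LSC*. Sprr2d was at 73.6 CPM in LSC* (60.9 to 88.0) and 71.0 in Wing* (66.2 to 75.9), and the next class was Squam* at 2.75. Sprr2h was at 55.0 CPM in LSC* and 28.4 in Wing*, and Sprr2e at 6.80 and 7.29 CPM. For Sprr2d and Sprr2e the counting intervals of the 2 classes overlapped, and for Sprr2h LSC* lay above. The overlap does not show equal levels, because the highest Wing* cell held 200 of the 837 Sprr2d UMIs of Wing*. For Sprr2e the highest Wing* cell held 63 of 86. For Sprr2h the highest LSC* cell held 27 of the 89 UMIs of LSC*, which the counting interval does not allow for. The UMIs of these genes sat in few cells. The 10 highest cells held 58.4% of the Sprr2d counts, 87.9% of the Sprr2e counts and 28.7% of the Sprr2h counts.

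Sprr2f, Sprr2k and Sprr3 were in Wing* and close to absent from LSC*. Sprr2f was at 20.4 CPM in Wing*, 3.85 in Squam* and 0.62 in LSC*, where it had 1 UMI. It was also the only member besides Sprr1a with UMIs in control Conj, 9 there at 0.44 CPM against 21 at 0.81 CPM in dry eye Conj, a ratio of 1.84 (0.807 to 4.56). Sprr2k was at 8.31 CPM in Wing* and Sprr3 at 5.43, and both had 0 UMIs in the 85 LSC* cells. By the floor of 3 counts, 0 of 85 cells allows a share of cells with a UMI of up to 3.53%, and it does not limit expression.

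Sprr2a3 departed from the rest. Its highest levels were in LSC* at 15.5 CPM, TAC2* at 9.00, LSC at 5.39, TAC1* at 3.93, Wing* at 2.97 and TAC2 at 2.21. Wing had 4 UMIs, Squam 0 and Basal 1. TAC1 had 1. The 3 starred limbal and transit amplifying classes, LSC, TAC2 and Wing* therefore held it, and each level overlapped the next in its interval. Across 19 groups of class and library with 100 or more cells, its log2(CPM + 1) had Pearson r between 0.23 and 0.54 with the other members, whose r with each other lay between 0.51 and 0.998. These groups share 2 libraries and their free RNA, so r is a description. LSC*, where Sprr2a3 was highest, was not among them. For Sprr2d, Sprr2k and Sprr3, Wing* lay well above all other groups, so a high r among them rests mostly on that class.

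**Figure D3:**
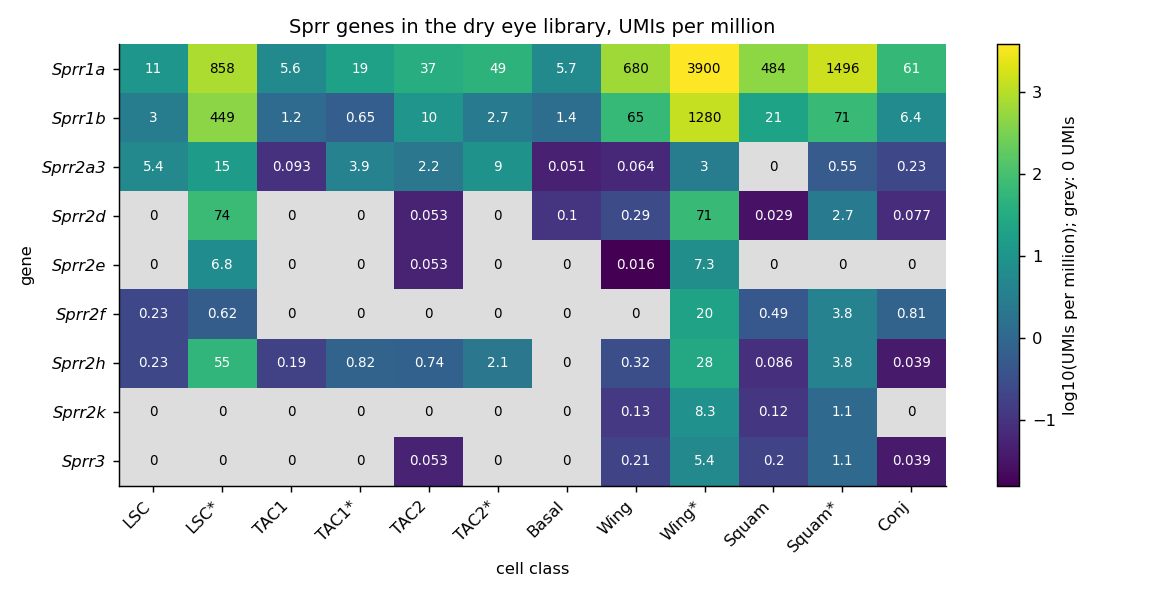
Level of each Sprr gene in the dry eye library (numbers, CPM) by cell class, coloured on a log10 scale with grey for 0 UMIs. The Wing* column is filled for all 9 genes, LSC* for 7, and the Sprr2a3 row is highest in LSC*, TAC2* and LSC.

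The classes come from the deposited annotation of the same cells, so a high level in a class is a description. Sprr2d, Sprr2f, Sprr1b and Sprr2h were among the 10 genes with the highest fold of Wing* over all other classes. LSC* was led by Prl2c5, Prl2c2 and Il24 with 0 limbal markers among its 10, and its name is used only as deposited. The limbal list summed to 18224 CPM in LSC* and 15927 in LSC of the dry eye library, and its genes were split. Krt14 (15945 against 5051 CPM) and Ifitm3 (2029 against 1294) were higher in LSC*. Gpha2 (27.8 against 3475), Krt15 (191 against 5996) and Cd63 (30.3 against 112) were lower there. All 9 members were at least 2-fold higher in Wing* than in Wing of the dry eye library, where 6.81% of genes were. Of marker lists, 4 of 4 stress keratins summed to 27523 CPM in Wing*, 20032 in LSC* and 9809 in Wing of that library. The skin epidermis list summed to 68.9, 32.8 and 61.9 CPM with Krt2 at 0 in all 3, and the corneal list to 22866, 11205 and 42596 CPM. S100a8, S100a9 and Ly6g summed to 2280 CPM in Wing* and 10604 in LSC*, with Ly6g at 0 in Wing*, while the 6 immune markers were all at 0 in LSC* and summed to 5.26 CPM in Wing* with Cd3e at 0. The part of these lists, and of the greater depth of starred cells (16145 UMIs per LSC* cell at the median against 5478.5 per LSC cell), in the Sprr levels was not tested.

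Members were found together in the same cells. After thinning to 3000 UMIs, 53.3% of dry eye Wing* cells held UMIs of 2 or more members and 16.7% of 3 or more, with up to 6 in 1 cell. The shares with 2 or more were 43.8% in LSC*, 10.4% in Squam*, 6.32% in Wing and 1.96% in Squam. Of 16371 control cells, 486 held a UMI of 1 member and 0 held 2. That 0 was nearly fixed in advance and tells little about co-detection in control. There 6 members were at 0, and Sprr2f and Sprr3 had 11 and 3 UMIs before thinning. In Wing*, 230 of the 234 cells with a Sprr1b UMI also had Sprr1a, 98.3% (95.7 to 99.5), against 52.2% of those without. All 19 Wing* cells with Sprr2f and all 14 with Sprr2k had Sprr1a and Sprr1b. Over all dry eye cells, 76.8% of those with Sprr2d had Sprr1b, 58.1% of those with Sprr2h, and 7.89% (1.66 to 21.4) of the 38 with Sprr2a3, against 3.92% of cells without Sprr2a3. Cells of 1 library are not replicates, and these shares describe the pool.

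**Figure D4:**
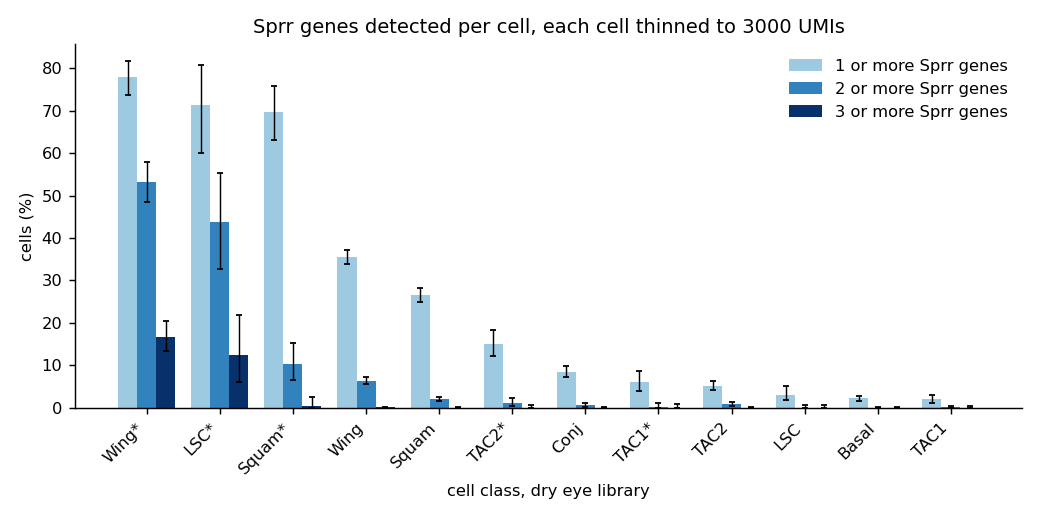
Share of dry eye cells (vertical axis, percent) in which 1, 2 or 3 or more Sprr genes had a UMI after each cell was thinned to 3000 UMIs, by cell class, with exact 95% intervals. Wing* and LSC* stand apart for 2 or more genes, at 53.3% and 43.8%.

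Cells with Sprr1b differed from their neighbours in some keratins and not in others. In plain Wing of the dry eye library, the 275 cells with 2 or more Sprr1b UMIs had 3413 CPM of Sprr1a against 343 CPM in the other 3114. Krt16 was at 1618 against 166 CPM, a 9.73-fold difference. Krt10, a keratin of cornifying skin, was 2.08-fold higher in them, whereas its partner Krt1 was at 3.78 against 7.57 CPM. Krt12 hardly differed, at 1.03-fold, Krt13 was 1.16-fold higher, and Krt4, a keratin of moist surface epithelia, was lower, at 26.5 against 193 CPM. Tgm1, the transglutaminase of keratinocytes, was 2.22-fold higher, and Ivl, involucrin, 1.38-fold. The cells with Sprr1b were deeper, with a median of 15765 against 11565 UMIs, which makes 2 UMIs easier to reach.

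In Wing* the same split gave 251 cells with Sprr1b and 195 without 2 UMIs of it, and here those with it were the shallower, at 14739 against 19883 UMIs. Sprr1a was at 7909 against 496 CPM, Sprr2d at 151 against 2.98 and Sprr2f at 42.6 against 1.57 CPM. Sprr2k and Sprr2e, with 98 and 86 UMIs in the Sprr1b cells, had 0 in the rest. Tgm1 was 2.98-fold higher, Ivl 2.17-fold, Krt10 2.33-fold and Krt13 2.10-fold. Krt16 was 1.47-fold higher, Krt4 1.27-fold higher and Krt12 0.727 times the level of the rest. Krt1 had 6 and 21 UMIs. In Squam, where 72 cells had 2 or more Sprr1b UMIs, Krt16 was 7.49-fold and Krt10 3.68-fold higher in them.

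Genes of the other cornified envelope proteins were also compared. Of 52 partner genes, 36 had 50 or more UMIs. In dry eye 13 of these were at least 2-fold higher (3.76% of all genes were) and 0 at least 2-fold lower (1.21%). Their median was 0.45 on the log2 scale against 5.14 for the 9 Sprr genes, which the floor enters. The highest were Dmkn (dermokine), from 1.13 to 56.1 CPM or 49.7-fold (43.5 to 57.1), and Cnfn (cornifelin), from 11.2 to 212 CPM or 18.9-fold. The lowest were Dsg1a, a desmosomal cadherin, at 0.615-fold and Lce3f, a late cornified envelope gene, at 0.716-fold. Ivl, the classic Sprr partner that lies next to the family, was at 5.27 and 6.74 CPM, 1.28-fold (1.18 to 1.39), and within Wing at 1.0-fold. The stretch of chromosome 3 between Lor and S100a10 holds the family and 16 other genes with 50 or more UMIs. Of those 16, 7 were at least 2-fold higher and 0 lower, against 3.76% and 1.21% of all genes. All of the 7 but Crct1 are also among the 13 partner genes above, so the 2 counts are not separate.

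Enzymes that cross-link Sprr proteins were measured for 3 of 7 transglutaminases. Tgm1 went from 16.6 to 31.4 CPM, 1.89-fold (1.81 to 1.97), Tgm5 was at 0.858-fold and Tgm2 at 0.616-fold. Thus 0 of 3 passed 2-fold in either direction, against 3.76% of all genes higher and 1.21% lower. Within Wing, Tgm1 was 2.04-fold higher, and within Conj it was at 0.872-fold.

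Of 36 regulators of keratinocyte differentiation or of Sprr promoters, 35 were measured, with a median of 0.05 on the log2 scale. Of these, 4 were at least 2-fold higher (3.76% of all genes were) and 0 at least 2-fold lower (1.21%). The highest were Maf, a basic leucine zipper factor, from 0.40 to 1.51 CPM (3.75-fold, 2.91 to 4.87), and Fosl1, a subunit of AP-1, from 0.33 to 1.24 CPM (3.70-fold, 2.80 to 4.95). Pou2f3, an octamer-binding factor of keratinocytes, was at 0.518-fold and Hopx at 0.775-fold. Of the keratins followed throughout, Krt16 was 33.5-fold higher over all cells, Krt4 1.64-fold, Krt13 1.5-fold and Krt10 1.21-fold, and Krt12 and Krt1 were at 0.892-fold and 0.80-fold.

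**Figure D5:**
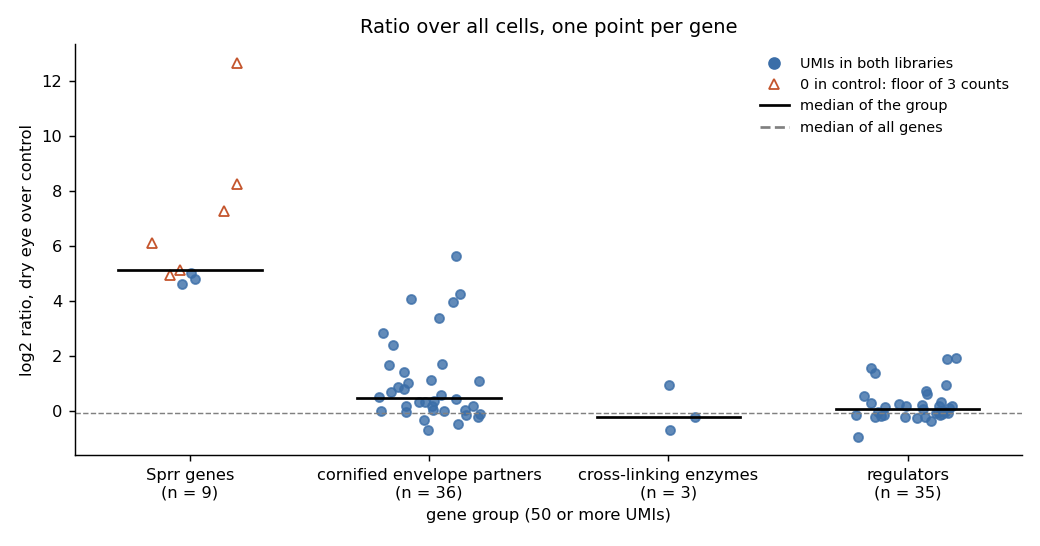
Log2 ratio of dry eye over control CPM over all cells, 1 point per gene with 50 or more UMIs, for the Sprr genes and the gene lists, where bars are medians and the dashed line is the median of all genes. All 9 Sprr genes lie above 4, and the medians of the partners, enzymes and regulators are 0.45, -0.22 and 0.05.

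Genes with the pattern most like each member were ranked among 10447 genes with 500 or more UMIs over the same 19 groups, LSC* not among them. Sprr1a was most like Arf6 (r = 0.95), Cstb and Cadm4, and Sprr1b most like Tm4sf1 (r = 0.96), Elovl4 and Nipal1. Dynap led the list of Sprr2d, Sprr2e, Sprr2f, Sprr2h, Sprr2k and Sprr3, with r from 0.86 to 0.97. Behind it came Sbsn and Tm4sf1 for Sprr2d and Sprr2k, Sbsn and Ccdc71l for Sprr2f, Sbsn and Elovl4 for Sprr3, Dmkn and Plaur for Sprr2h, and Atf3 and Mmp13 for Sprr2e. Sprr2a3 was most like Serpina3n (r = 0.94), Msn and Ly6c1, none of which led another member. By rank correlation at most 1 of the 3 genes was the same for any member, so these names rest on the measure chosen.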

How the data were processed

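Chromium 3′ v3.1 libraries of control and dry eye epithelium were made per the labels' protocols. Per the submitters' processing notes, Cell Ranger 6.0.1, Seurat 4 and mm10 were used, in roles that are not stated. The authors deposited a table of UMI counts without normalization, and a second table gives each cell's library and class. The filters on genes and cells were not stated.

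Counts were summed per library, or per class and library, and divided by the total to give CPM. Ratios and shares have exact 95% Clopper-Pearson intervals. Those of ratios were checked on simulated library counts that varied by counting error only. UMIs that sit together in few cells were not simulated, and intervals of shares were not checked. UMIs remove most PCR copies, and intervals cover counting error only. A library at 0 took a floor of 3 counts, and no ratio was formed where both libraries had 3 or fewer. 1 UMI is 0.00522 CPM in control and 0.00483 CPM in dry eye. Classes were compared between libraries with 100 or more cells in each, and free RNA was not removed. No doublet caller was run, and the 5% deepest cells were left out as an alternative. Coordinates are GENCODE M21 on mm10, 1-based, and promoter windows were matched by symbol for all 9 members. Protein sequences were not used here. Python 3.11.15, numpy 2.4.6, scipy 1.17.1, pandas 2.3.3 and matplotlib 3.10.9 were used.

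All members are named, with the 2 highest and 2 lowest of each list at 50 or more UMIs, the 3 genes most like each member, and 8 keratin and envelope genes whatever their values. The genes leading LSC* were chosen from their values. The members and lists were chosen with earlier results of these data known. Alternatives were the class mix, averaging over cells, the highest cells, depth, scaling, thinning, free RNA and the measure of likeness. The shared barcodes and the reading of a control 0 were added after the data were seen.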

Additional observations from a re-analysis of the deposited data

How the results depend on the processing

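No paired analysis was possible because each group is 1 pooled library. All 9 members were at least 2-fold higher, 8 without the starred classes, where Sprr2e has no ratio, 8 at the control class shares, and 9 with the mean over cells, without the 10 highest cells, with median scaling and without the 5% deepest cells. Ratios are to the floor for the 6 genes at 0 in control, and those given here left the exact interval for a plain 0 or for the control count. Without the starred classes, which held the counts removed, they were 20.3 (Sprr1a), 1860 (Sprr1b), 27.4 (Sprr2a3), 8.55 (Sprr2d), 3.79 (Sprr2f), 14.6 (Sprr2h), 4.28 (Sprr2k) and 7.84 (Sprr3). At the control class shares they were 24.2 (Sprr1a), 2410 (Sprr1b), 20.4 (Sprr2a3), 19.5 (Sprr2d), 1.61 (Sprr2e), 3.33 (Sprr2f), 19.7 (Sprr2h) and 5.79 (Sprr2k). The mean over cells gave 30.9 (Sprr1a), 3587 (Sprr1b), 49.0 (Sprr2a3), 197 (Sprr2d), 18.1 (Sprr2e), 94.0 (Sprr2h) and 21.9 (Sprr2k). Without the 10 highest cells they were 5342 (Sprr1b), 46.6 (Sprr2a3), 127 (Sprr2d), 3.70 (Sprr2e), 109.5 (Sprr2h) and 15.7 (Sprr2k), and without the 5% deepest cells 4424 (Sprr1b), 113 (Sprr2h) and 25.9 (Sprr2k). Scaling by the median ratio over genes, where the median gene is at -0.07 on the log2 scale, gave 34.1 for Sprr1a. With 2 control cells behind a 0 they were 493 (Sprr1b), 51.8 (Sprr2a3), 45.8 (Sprr2d), 10.2 (Sprr2e), 90.6 (Sprr2h) and 21.7 (Sprr2k). Apart from the class mix, the cause of these moves was not tested. All 9 stayed inside their intervals without the shared barcodes.

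Within classes, subtracting the mean UMIs per cell of the lowest class put Sprr1a in Basal at 0.372, because Basal was itself the lowest dry eye class and was left at the floor. The other 9 of 11 such ratios stayed inside their intervals, and Sprr1a in TAC1 was at 4.37. Of 63 shares of cells, 19 left their intervals at 2000 UMIs and 17 with 2 or more UMIs required. Depth limits the rarest members: the 85 LSC* cells and the 90 to 114 UMIs of Sprr2e, Sprr2k and Sprr3 allow no order among low classes.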
